A study of Saccharomyces cerevisiae with 8 samples.

Results

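Stable unannotated transcripts (SUTs) are noncoding RNAs of the budding yeast Saccharomyces cerevisiae, and the 280 SUTs described here share at least 1 nt with the transcript of an open reading frame (ORF) on the opposite strand. They were found by position in the deposited annotation, which holds 6030 transcripts, 500 of them SUTs, and the rule for finding them uses no measured value, although it was chosen with earlier results of these data known. An ORF counted when its systematic name had the plain form of a letter for the chromosome, L or R for the arm, a number and W or C for the strand; a further 10 SUTs lie opposite only an ORF with a suffix in its name and were left out. The 280 SUTs form 327 pairs with 319 different ORFs. Of them, 235 lie opposite 1 ORF, 43 opposite 2 and 2 opposite 3, and for these last 45 the ORF with the longest overlap is used below.

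SUTs are made by RNA polymerase II and are seen in wild-type cells, whereas cryptic unstable transcripts (CUTs) are seen when the nuclear exosome is disabled and Xrn1-sensitive unstable transcripts (XUTs) when the cytoplasmic exonuclease Xrn1 is lost. Many SUTs start in the nucleosome-depleted regions at the ends of genes, from which they run across a neighbouring gene against its direction. In known cases, such as SUT719 across SUR7, antisense transcription lowers the expression of the gene, and in many others no such effect is known. Mediator bridges transcription factors and RNA polymerase II when transcription starts, and Med7, Med21 and Med10 are subunits of its middle module.

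RNA made during a short pulse was measured in 4 groups of 2 libraries, which are the strains J121 with the allele med7-1002, J20 with med21-1002, J84 with med10-1002, and the parent strain HS1004. Each allele was thus measured in 1 strain, and none is described as a deletion. All strains, the parent included, are labelled MATa with the resistance markers can1-100 and cyh2r, the nutritional markers ura3, trp1-1, his3-11,15, ade- and a leu2 allele, and a construct written hsp82- DHSE-lacZ. Cultures grew at 30 °C in rich glucose medium (YPD) from an OD600 of 0.1 to 0.8 and then received 5 mM 4-thiouracil, a uracil analogue built into new RNA, for 6 min. Libraries were made from 100 ng of RNA. Spike-in RNA was not analysed here, so every value is relative to the other transcripts of its library.

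Library facts bear on what follows. Assigned counts per library ranged from 10962170 to 23629303, of which 28920 to 117143 fell in antisense SUTs. The med7-1002 libraries stand apart. All 4 measured genes specific to alpha cells fell there (median log2 fold change −7.41) and 5 of 6 specific to a cells rose (median 5.17), whereas the other strains expressed the alpha-cell genes although every label reads MATa. The pair of med7-1002 libraries also differed more than any other pair: over 219 antisense SUTs, the log2 difference between replicates had an SD of 1.43 in med7-1002, 0.554 in med21-1002, 0.349 in med10-1002 and 0.412 in parent, and 103 of the 219 lay over 2-fold apart in med7-1002. In addition, 49.5% and 37.7% of their reads were assigned to no annotated transcript, against 32.7% and 33.5% in parent. Results for med21-1002 and med10-1002 are therefore given with and without the med7-1002 libraries; the part of these differences in the med7-1002 results was not tested.

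The antisense SUTs span 170 to 3519 nt with a median of 942.5 nt, longer than SUTs without an opposite ORF (median 734.5 nt) and shorter than ORF transcripts (1431 nt). They lie on the plus strand in 146 cases and on the minus strand in 134. The median overlap is 752.5 nt, which is 79.2% of the SUT and 63.8% of the ORF transcript. The SUT covers the start of the ORF transcript in 106 pairs, its end in 82 and all of it in 27, and lies inside it in 65. It reaches into coding sequence in 237 pairs and only into untranslated parts in 42. The SUT starts within 200 nt of the end of the opposite ORF in 151 cases, and within 500 nt of the start of an ORF transcribed away from it in 131. The locus maps show 6 of these arrangements.

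**Figure D1:**
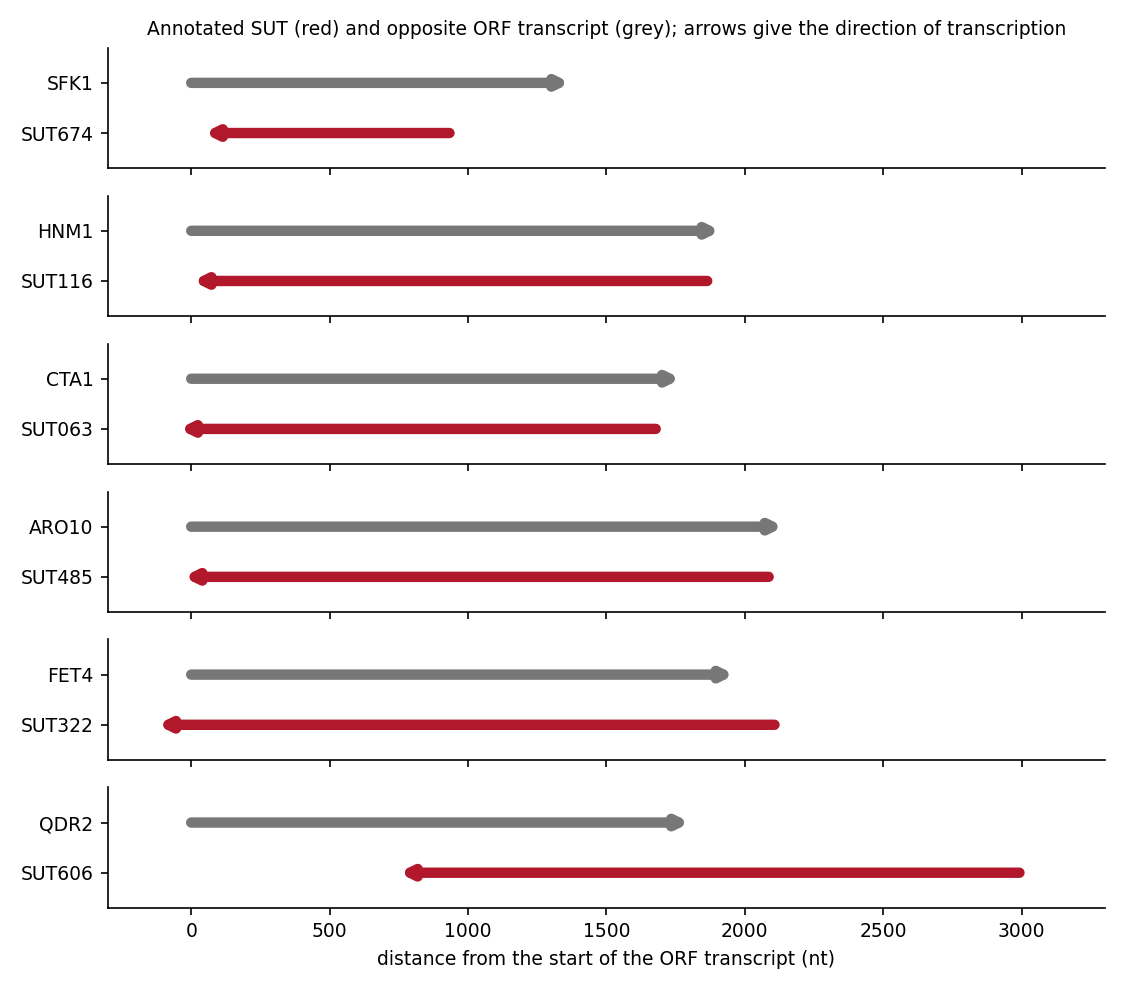
Annotated spans of 6 antisense SUTs (red) and their opposite ORF transcripts (grey), drawn to scale as distance in nt from the start of the ORF transcript, with arrowheads in the direction of transcription. SUT674 lies inside SFK1, SUT116, SUT063 and SUT485 span nearly all of HNM1, CTA1 and ARO10, SUT322 covers all of FET4, and SUT606 enters QDR2 from beyond its end.

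The sequences below are the start regions of SUTs on which the results turn. They were read from the RefSeq genome of build R64, on the strand of the SUT and 5′ to 3′. The first 6 run from 150 bases before the annotated start to 50 bases from it; capitals mark those 50 transcribed bases and, before them, the hexamer TATAAA of the TATA box. SUT674 (chrXI:342061-342260, minus strand) rose most in med10-1002, SUT322 (chrXIII:912360-912559, plus) had the highest level, SUT692 (chrXII:291640-291839, minus) starts inside the coding sequence of GAL2, as SUT674 does in SFK1, and SUT606 (chrIX:135183-135382, minus) rose where its ORF fell. SUT670 (chrXI:307033-307232, minus) and SUT238 (chrXI:466246-466445, plus) hold TATAAA beginning 108 and 125 bases before the start. SUT322, SUT670, SUT238 and SUT606 start outside every annotated ORF transcript.
SUT674: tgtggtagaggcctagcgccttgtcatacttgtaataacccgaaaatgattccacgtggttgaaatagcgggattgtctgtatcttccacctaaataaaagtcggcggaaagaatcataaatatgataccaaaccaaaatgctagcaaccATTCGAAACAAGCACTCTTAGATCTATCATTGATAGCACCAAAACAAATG
SUT322: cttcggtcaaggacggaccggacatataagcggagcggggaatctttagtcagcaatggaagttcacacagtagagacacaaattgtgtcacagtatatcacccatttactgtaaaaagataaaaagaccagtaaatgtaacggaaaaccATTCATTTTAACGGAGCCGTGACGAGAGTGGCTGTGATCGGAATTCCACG
SUT692: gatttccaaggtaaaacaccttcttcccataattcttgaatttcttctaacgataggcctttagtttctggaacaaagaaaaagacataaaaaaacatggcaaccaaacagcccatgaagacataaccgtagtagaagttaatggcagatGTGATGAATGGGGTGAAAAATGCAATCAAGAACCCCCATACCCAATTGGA
SUT606: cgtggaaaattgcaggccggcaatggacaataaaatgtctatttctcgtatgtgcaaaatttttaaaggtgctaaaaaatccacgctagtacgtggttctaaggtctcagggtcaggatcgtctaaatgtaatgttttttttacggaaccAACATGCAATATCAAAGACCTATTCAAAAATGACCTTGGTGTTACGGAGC
SUT670: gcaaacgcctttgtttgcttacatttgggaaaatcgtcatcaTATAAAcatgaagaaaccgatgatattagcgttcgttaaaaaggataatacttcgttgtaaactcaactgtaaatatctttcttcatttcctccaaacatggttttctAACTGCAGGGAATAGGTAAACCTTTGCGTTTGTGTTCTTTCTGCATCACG
SUT238: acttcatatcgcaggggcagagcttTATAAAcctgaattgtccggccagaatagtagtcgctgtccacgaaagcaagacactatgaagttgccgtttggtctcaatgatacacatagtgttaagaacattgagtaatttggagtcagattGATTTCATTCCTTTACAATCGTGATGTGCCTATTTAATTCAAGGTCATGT

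A further 4 SUTs described below have untranslated parts of an ORF transcript around their start, and only the 30 bases around TATAAA are shown for them, with the hexamer in capitals. The hexamer begins 30 bases before the start of SUT063 (chrIV:968002-968031, plus), 68 before SUT658 (chrXI:24147-24176, minus), 70 before SUT065 (chrIV:1014253-1014282, plus) and 126 before SUT637 (chrX:453587-453616, minus).
SUT063: acctattagtcgTATAAAtaaataattcat
SUT658: tttatgtaatgtTATAAAggctataatatg
SUT065: ctagtttgtataTATAAAtcattggcgctt
SUT637: catatacacgttTATAAAacttaaatagat

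TATAAA, searched on the strand of the SUT only, was present in the 150 bases before 18.2% of antisense SUT starts (51 of 280), against 18.5% over all 6030 transcripts. TTACCCG or CGGGTAA, the 2 strands of the core motif of the general regulatory factor Reb1, was present in the 250 bases before 3.93% of antisense SUT starts, against 8.29% over all transcripts. A match is a description of the letters and shows no binding. The Reb1 share was 9.17% for ORFs, which make up most of all transcripts, and was low in the other noncoding classes too, at 3.46% for XUTs, 5.33% for CUTs and 5.91% for the other SUTs. No test was made of either motif.

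Not every antisense SUT could be counted. Of the 280, 33 lie entirely under other transcripts of their own strand, where a read fits more than 1 transcript; 32 of these had 0 counts in all 8 libraries, so a 0 there is no measure of expression. Another 28 had too few counts to test. The 219 tested SUTs, of which 180 share nothing with a transcript on their own strand, passed a filter on low counts that uses all groups. Levels are in CPM, counts relative to the library total, after scaling between libraries; levels per kb use only the part of each SUT that no transcript on its strand shares, which 247 SUTs have.

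In the parent, antisense SUTs stood at a median of 6.45 CPM per kb, above SUTs without an opposite ORF (4.04), XUTs (3.81) and CUTs (1.83) and below ORFs (56.4). SUT322, opposite the low-affinity iron transporter gene FET4, was the highest at 191.7 and 210.5 CPM per kb in the parent libraries. It alone held 11.3% of the summed antisense SUT CPM of the parent, and the top 10 SUTs held 37.9%. SUT240, opposite the dihydrosphingosine 1-phosphate phosphatase gene YSR3, followed at a mean of 115.1 CPM per kb. SUT670 opposite OSI1 stood at 91.6, SUT014 opposite the tRNA methyltransferase gene TRM7 at 79.5 and SUT460 opposite INH1, which encodes an inhibitor of the mitochondrial ATP synthase, at 64.6. The 94.2 CPM per kb of SUT624 opposite IDS2 rest on only 18 nt that it does not share with another transcript, so its place in this order is unsure. In 43 of 247 pairs the SUT was at or above its ORF in parent CPM per kb. Across these pairs the level of the SUT showed little relation to that of the ORF (Spearman's rho 0.0666 in the same 2 libraries, a description without a test).

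Pairs with low SUT levels show how far the counts keep the strands apart. In 79 pairs at least 90% of the SUT lies opposite the ORF and nothing is shared on its own strand. There the SUT stood at a median of 20.2% of the ORF level per kb. The lowest ratio among these 79 was 0.724% at SUT318 opposite PET111, from 6 counts in both parent libraries (upper bound of the exact 95% Poisson interval, counting error only, 1.58%). Were every ORF to give reads on the wrong strand at 0.724%, they would make up over 10% of the parent level in 27 of the 180 unshared SUTs, SUT163, SUT706, SUT330, SUT485 and SUT565 most, and a median of 2.49%. These shares may be too high. SUT530, of which 48.3% lies opposite MET10, stood at only 0.187 CPM per kb in parent, against 469.9 for MET10.

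Taken as a share of all assigned counts, antisense SUTs were lower in both libraries of med7-1002 and of med21-1002 than in parent, and higher in both of med10-1002. They took 0.264% and 0.156% of the counts in med7-1002, 0.306% and 0.291% in med21-1002, then 0.553% and 0.595% in med10-1002, against 0.386% and 0.429% in parent. The plot of the share by library shows no overlap between any mutant and parent. With 2 libraries against 2, the exact two-sided permutation test cannot give a p under 0.333, so no test of this share can pass. The order does not rest on SUT322: without it the antisense SUTs summed to 2475 and 1719 CPM in med7-1002, 2885 and 2644 in med21-1002, then 5147 and 5290 in med10-1002, against 3352 and 3688 in parent. In bulk cultures fewer cells making a transcript and less of it per cell cannot be told apart.

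**Figure D2:**
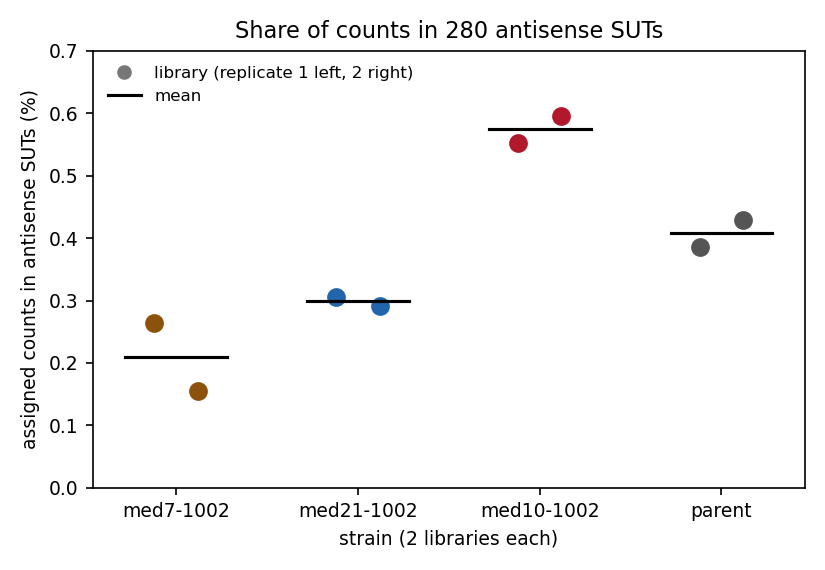
Percent of assigned counts that fell in the 280 antisense SUTs, for each library (points) and the mean of each strain (bars). Both med10-1002 libraries lie above both parent libraries, at 0.553% and 0.595%, and all med7-1002 and med21-1002 libraries lie below them.

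Single antisense SUTs were tested in 1 fit over all 5746 testable transcripts, and a transcript is said to have risen or fallen where its adjusted p was under 0.05 (edgeR, Benjamini-Hochberg adjustment). In med10-1002, 32 of the 219 rose (14.6%) and 1 fell, while 4.93% of all transcripts rose and 2.63% fell (7.55% in all). Their median log2 fold change was 0.30, against −0.01 over all transcripts and −0.02 over ORFs. In med21-1002, 13 fell (5.94%) and 1 rose, while 3.92% of all transcripts fell and 3.88% rose (7.8% in all); the median was −0.46, against 0.00 over all transcripts and 0.04 over ORFs. In med7-1002, 66 fell (30.1%) and 4 rose, while 22.6% of all transcripts fell and 25.9% rose (48.6% in all); the median was −0.52, against 0.02 over all transcripts. The 4 that rose in med7-1002 were SUT674, SUT253, SUT699 and SUT565.

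The fit estimates 1 spread for all groups. Without the med7-1002 libraries, 86 of 216 antisense SUTs rose and 13 fell in med10-1002 (backgrounds 20.8% and 16.0%), and 72 fell and 4 rose in med21-1002 (backgrounds 14.9% and 14.8%). The medians hardly moved, at 0.34 and −0.45. Fewer antisense SUTs were called in med10-1002 and in med21-1002 where a parent library or a library of that mutant was left out. More were called in both where a single med7-1002 library was left out. Shares over all transcripts are not given for those fits, so their counts cannot tell these SUTs from transcripts in general. The 2 med7-1002 libraries were unlike. Relative to the parent mean, the antisense SUTs had a median log2 difference of −0.21 in replicate 1 and −0.99 in replicate 2.

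By position of the single libraries, both med10-1002 libraries lay above both parent libraries for 115 of the 219 SUTs (37.6% of all transcripts) and below for 44 (39.0%). Both med21-1002 libraries lay below both parent libraries for 131 (31.9%) and above for 17 (31.0%). Both med7-1002 libraries lay below for 114 (35.9%) and above for 7 (35.7%).

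**Figure D3:**
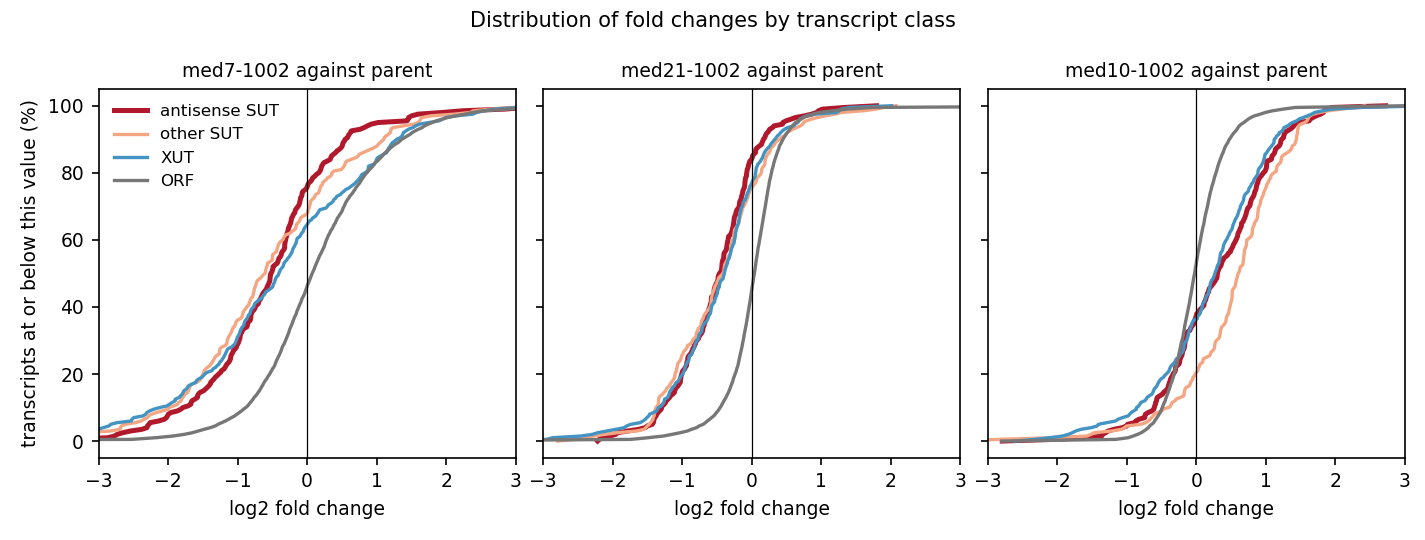
Percent of transcripts at or below each log2 fold change for the 3 mutants against parent, for antisense SUTs (219 tested), other SUTs, XUTs and ORFs; the axis shows −3 to 3. The curve of the antisense SUTs lies left of that of the ORFs in med7-1002 and med21-1002 and mostly right of it in med10-1002. Those of the other SUTs and the XUTs lie mostly on the same side, and CUTs are not drawn.

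The other noncoding classes had medians of the same sign in most comparisons. SUTs without an opposite ORF stood at −0.61 in med7-1002, −0.42 in med21-1002 and 0.60 in med10-1002, and XUTs at −0.41, −0.39 and 0.27 in the same order. CUTs differed, at 0.03, −0.56 and −0.48. No test was made between the antisense SUTs and these classes.

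Set directly against each other, med21-1002 and med10-1002 differed at 72 of the 219 antisense SUTs, 71 of them lower in med21-1002, while 10.6% of all transcripts were lower and 9.38% higher (20.0% in all). The 1 higher in med21-1002 was SUT485. The median log2 fold change was −0.79, and 32.4% were lower. SUTs without an opposite ORF had a median of −1.08 with 34.6% lower, and XUTs −0.65 with 12.5% lower. CUTs had −0.09 with 0.909% lower. Both med21-1002 libraries lay below both med10-1002 libraries for 152 of the 219 (35.3% of all transcripts) and above for 23 (37.8%). Without the med7-1002 libraries 120 of 216 were lower and 8 higher (backgrounds 24.9% and 22.4%). Fewer differed where a single med21-1002 or med10-1002 library was left out, and no share over all transcripts is given for those fits.

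SUT674 rose in all 3 mutants and rose most in med10-1002. The SUT (chromosome XI, 341222 to 342110, minus strand) lies inside SFK1, whose product acts at the plasma membrane. It stood at 18.6 and 17.7 CPM in med7-1002, 17.6 and 18.6 in med21-1002, then 83.9 and 76.4 in med10-1002, against 11.5 and 12.7 CPM in parent. All mutant libraries lay above both parent libraries, with med10-1002 far above the others. Its log2 fold change in med10-1002 was 2.72 (6.61-fold, SE 0.15, edgeR adjusted p = 0.000177), and this call held in all 18 other settings. SUT674 is over 500 and up to 1000 nt long. All tested transcripts of that class had a median of 0.48 in med7-1002 and −0.03 in med21-1002. SUT674 itself stood at 0.58 in med7-1002 and in med21-1002 (edgeR adjusted p = 0.0108 and 0.0485). Those calls were lost with library size alone as scaling (edgeR adjusted p = 0.0599 and 0.100) and without a parent library (edgeR adjusted p up to 0.0992 and 0.363).

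SUT063 (chromosome IV, 968044 to 969767, plus strand) spans nearly all of CTA1, the gene of the peroxisomal catalase. Its levels were 98.7 and 88.2 CPM in med10-1002, against 25.8 and 26.3 CPM in parent, and med7-1002 (24.3 and 22.1) and med21-1002 (27.4 and 23.7) lay close to parent. It rose 3.58-fold in med10-1002 (log2 1.84, SE 0.14, edgeR adjusted p = 0.00072), also in all 18 other settings. CTA1 itself did not pass there (log2 fold change 0.09, edgeR adjusted p = 0.884).

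SUT065 runs across MTH1, which encodes a repressor of glucose transporter genes. It stood at 34.3 and 9.54 CPM in med7-1002, 64.6 and 83.1 in med21-1002, then 91.3 and 75.5 in med10-1002, against 24.6 and 17.9 CPM in parent. Its libraries of med21-1002 and med10-1002 all lay above parent, while the med7-1002 libraries lay on both sides of it. The log2 fold change was 1.97 in med10-1002 (edgeR adjusted p = 0.0405) and 1.80 in med21-1002 (0.0515, not past the threshold).

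SUT637 opposite MHO1 stood at 19.0 and 16.6 CPM in med10-1002, against 4.84 and 5.02 in parent (log2 1.85, SE 0.32, edgeR adjusted p = 0.0123). SUT692 opposite the galactose permease gene GAL2 stood at 29.4 and 29.02 CPM in med10-1002, against 8.13 and 9.04 in parent (log2 1.76, edgeR adjusted p = 0.0488). SUT492, which starts 193 nt from the divergent start of DOT1 and reaches the end of LRS4, a gene of the monopolin complex, stood at 48.1 and 50.3 CPM in med10-1002, against 15.8 and 15.2 in parent (log2 1.67, edgeR adjusted p = 0.0459). In all 3 the med10-1002 libraries lay over 3-fold above parent; GAL2 resembles other hexose transporter genes, and how reads with several matches were counted is not given, so its value is less sure. SUT334 opposite YNL095C (log2 1.46) and SUT175 opposite the sulfur compound transporter gene SOA1 (1.40) rose as well in med10-1002 (edgeR adjusted p = 0.00752 and 0.0114). Of the 13 SUTs named for med10-1002, SUT063 and SUT674 held their call in all 18 other settings; the others lost it when a parent or med10-1002 library was left out.

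SUT485 was the exception that fell in med10-1002. The SUT (chromosome IV, 1234084 to 1236199, minus strand) spans nearly all of ARO10, which encodes the phenylpyruvate decarboxylase of the Ehrlich pathway. It stood at 19.2 and 21.6 CPM in med7-1002, 75.1 and 60.9 in med21-1002, then 23.7 and 26.7 in med10-1002, against 48.7 and 73.1 CPM in parent. The log2 fold change was −1.27 in med10-1002 (edgeR adjusted p = 0.0103) and −1.57 in med7-1002 (0.000384), and in med21-1002, at 0.16, it did not pass (0.717). The med10-1002 call was lost without parent replicate 2 (edgeR adjusted p = 0.106) or med10-1002 replicate 1 (0.123) or 2 (0.0857). ARO10 fell in med7-1002, as the SUT did, but was called differently from it in the other 2 mutants: it stood at 42.0 and 126.1 CPM in med7-1002, 165.6 and 94.6 in med21-1002, then 2103 and 2043 in med10-1002, against 2563 and 2523 in parent. At the wrong-strand ratio of 0.724% above, which may be too high, ARO10 reads would make up 29.5% of the parent level of SUT485. The SUT thus did not pass in med21-1002, where ARO10 fell, and fell in med10-1002, where ARO10 did not pass (log2 −0.29, edgeR adjusted p = 0.722).

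Among the falls in med21-1002, that of SUT116 (chromosome VII, 362189 to 364049, plus strand), opposite the choline transporter gene HNM1, was the largest. It stood at 4.48 and 1.67 CPM in med7-1002, 3.86 and 3.73 in med21-1002, then 39.9 and 42.5 in med10-1002, against 14.0 and 21.4 CPM in parent. The log2 fold change was −2.22 in med21-1002 (SE 0.39, edgeR adjusted p = 0.0109) and −2.59 in med7-1002 (0.000918), and the 1.22 of med10-1002 did not pass (0.0767). HNM1 did not pass in any of the 3 (log2 fold changes 0.03, −0.10 and −0.24 in med7-1002, med21-1002 and med10-1002). The med21-1002 call of SUT116 was lost without parent replicate 2 (edgeR adjusted p = 0.136) or either med21-1002 library (0.108 and 0.141).

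SUT429, which covers YPR195C, stood at 3.21 and 1.83 CPM in med21-1002, against 12.3 and 11.0 in parent (log2 −2.20, SE 0.32, edgeR adjusted p = 0.0044). SUT148, which lies inside NPR3, a gene whose product restrains the growth regulator TORC1, stood at 9.17 and 10.3 CPM in med21-1002, against 29.2 and 29.5 in parent (log2 −1.59, SE 0.17, edgeR adjusted p = 0.000972). Of 10 SUTs named for med21-1002, these 2 held their call in all 18 other settings. SUT658 inside JEN1, the gene of a lactate transporter, stood at 13.7 and 13.6 CPM in med21-1002, against 40.0 and 37.2 in parent (log2 −1.50, edgeR adjusted p = 0.00442). SUT406 inside RLM1, a transcription factor gene of the cell wall pathway (−1.94), SUT537 inside the acyl-CoA oxidase gene POX1 (−1.41) and SUT097 at the start of YER158C (−1.40) fell too. SUT322 opposite FET4 fell to 219.6 and 168.1 CPM in med21-1002, against 428.0 and 469.9 in parent (log2 −1.21, SE 0.19, edgeR adjusted p = 0.00565, or 0.095 without med21-1002 replicate 2).

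In med7-1002 SUT322 fell further, to 66.4 and 91.4 CPM (log2 −2.50, SE 0.20, edgeR adjusted p = 2.35e-05). FET4 did not pass there (log2 −0.28, edgeR adjusted p = 0.105) or in the other mutants. SUT148 (−2.30), SUT676 inside VPS24, a gene of the ESCRT-III complex (−2.30), SUT198 across the oligopeptide transporter gene OPT1 (−2.27) and SUT240 opposite YSR3 (−2.03) fell as well. SUT238, of which only 417 nt can be counted, stood at 2.46 and 4.28 CPM in med7-1002 and 31.3 and 33.6 in med10-1002, against 13.6 and 14.3 in parent, so the log2 fold change was −2.02 in med7-1002 (edgeR adjusted p = 0.000501), and it rose in med10-1002 (1.21, edgeR adjusted p = 0.0292). SUT163 opposite HXT1, the gene of a low-affinity glucose transporter, fell in med7-1002 (−2.06, edgeR adjusted p = 0.00779), but HXT genes resemble each other. Wrong-strand reads at the ratio of 0.724% above, which may be too high, would make up 33.0% of the parent level of SUT163. For SUT198 they would make up 17.4%. Of 18 SUTs named for med7-1002, 11 held their call in all 17 other settings.

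**Figure D4:**
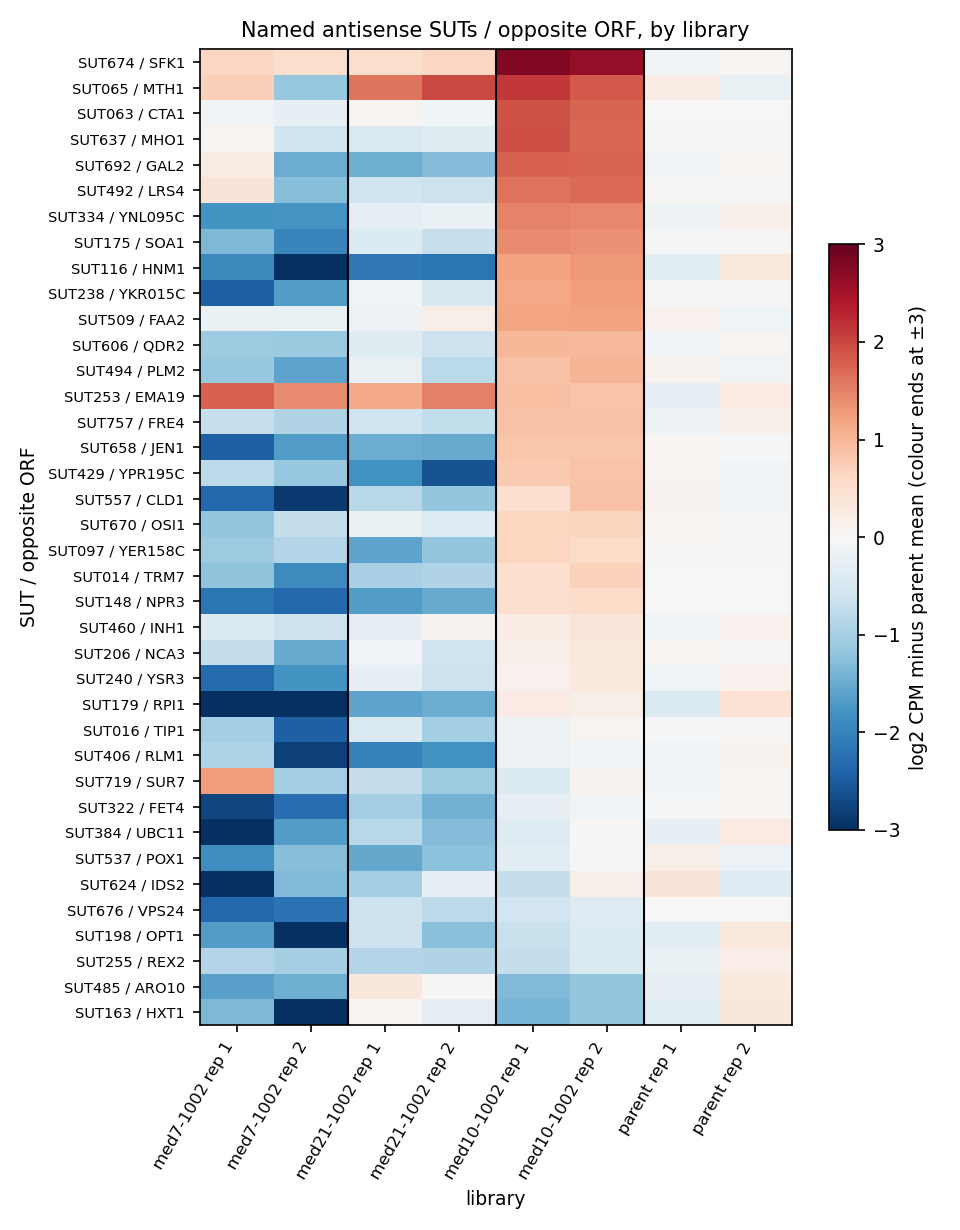
Log2 CPM of each named antisense SUT minus its mean in the parent libraries, by library (columns) and SUT with its opposite ORF (rows, ordered by the mean of the med10-1002 libraries); red is higher and blue lower than parent, with colours ending at ±3. The upper rows are red in both med10-1002 columns, SUT674 most, and SUT065, SUT253 and SUT674 are the only rows that are red in both med21-1002 columns at over 0.5.

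SUT719, known for its antisense transcription across SUR7, an eisosome gene, showed no detectable change. It stood at 10.1 and 2.02 CPM in med7-1002, 2.51 and 1.90 in med21-1002, then 3.11 and 4.56 in med10-1002, against 3.99 and 4.41 CPM in parent. The med7-1002 libraries lay on both sides of parent. The log2 fold change was 0.51 (SE 0.66) in med7-1002, −0.92 (SE 0.68) in med21-1002 and −0.13 (SE 0.66) in med10-1002, on 28 to 115 counts per library.

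The ORFs opposite these SUTs were then set beside them. Over 218 pairs in which both were tested, the SUTs had median log2 fold changes of −0.52 in med7-1002, −0.47 in med21-1002 and 0.30 in med10-1002, while the ORFs had 0.03, 0.00 and 0.01. Spearman's rho between the log2 fold changes of SUT and ORF was 0.168, 0.0555 and 0.149 in that order; SUT and ORF share libraries and scaling, and the values are a description. In med10-1002, 27 SUTs changed without a call for the ORF, and in 6 pairs both changed. The ORF rose opposite 6.25% of the 32 SUTs that rose there and fell opposite 12.5%, against 4.59% and 3.21% over all 218 pairs. In med21-1002, 12 SUTs changed without a call for the ORF, and in 2 pairs both changed, SUT148 with NPR3 and SUT757 with FRE4. The ORF rose opposite 7.69% of the 13 SUTs that fell there and fell opposite 7.69%, against 10.6% and 6.88% over all pairs. In med7-1002, both changed in 33 pairs, 24 in the same direction and 9 in opposite directions. There the ORF fell opposite 33.3% of the 66 SUTs that fell and rose opposite 12.1%, while over all 218 pairs 28.9% of the ORFs fell and 26.1% rose.

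In 4 pairs of med10-1002 the SUT rose and the ORF fell, which is 12.5% of the 32 SUTs that rose, while the ORF fell in 3.21% of all pairs. SUT606 enters QDR2, a multidrug transporter gene, from beyond its end, and stood at 87.6 and 86.3 CPM in med10-1002, against 41.1 and 46.7 in parent (log2 0.99, edgeR adjusted p = 0.00547). QDR2 stood at 26.7 and 27.0 CPM in med10-1002, against 76.1 and 72.8 in parent (log2 −1.47, edgeR adjusted p = 0.00224). QDR2 also fell in med21-1002 (−2.21) and in med7-1002 (−3.43), where SUT606 did not rise: it stood at −0.49 in med21-1002, short of the threshold, and fell by 1.10 in med7-1002.

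SUT757 crosses the ferric reductase gene FRE4 from beyond its end, and stood at 59.6 CPM in both med10-1002 libraries, against 29.3 and 35.9 in parent (log2 0.87, edgeR adjusted p = 0.0157). FRE4 stood at 196.6 and 187.2 CPM in med10-1002, against 390.8 and 392.4 in parent (log2 −1.03, edgeR adjusted p = 0.00195). In med21-1002 the 2 fell together, by 0.67 and 0.46. SUT494 with PLM2, a gene of the DNA damage response (0.95 and −0.84), and SUT674 with SFK1 (2.72 and −0.74) are the other pairs. SFK1 fell most in med7-1002 (−2.05), where SUT674 rose less than in med10-1002. In the remaining 2 pairs of med10-1002 both rose, SUT065 with MTH1 (1.97 and 0.48) and SUT509 with the fatty acyl-CoA synthetase gene FAA2 (1.20 and 0.61). The plot of SUT against ORF changes shows these 6 pairs by name.

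**Figure D5:**
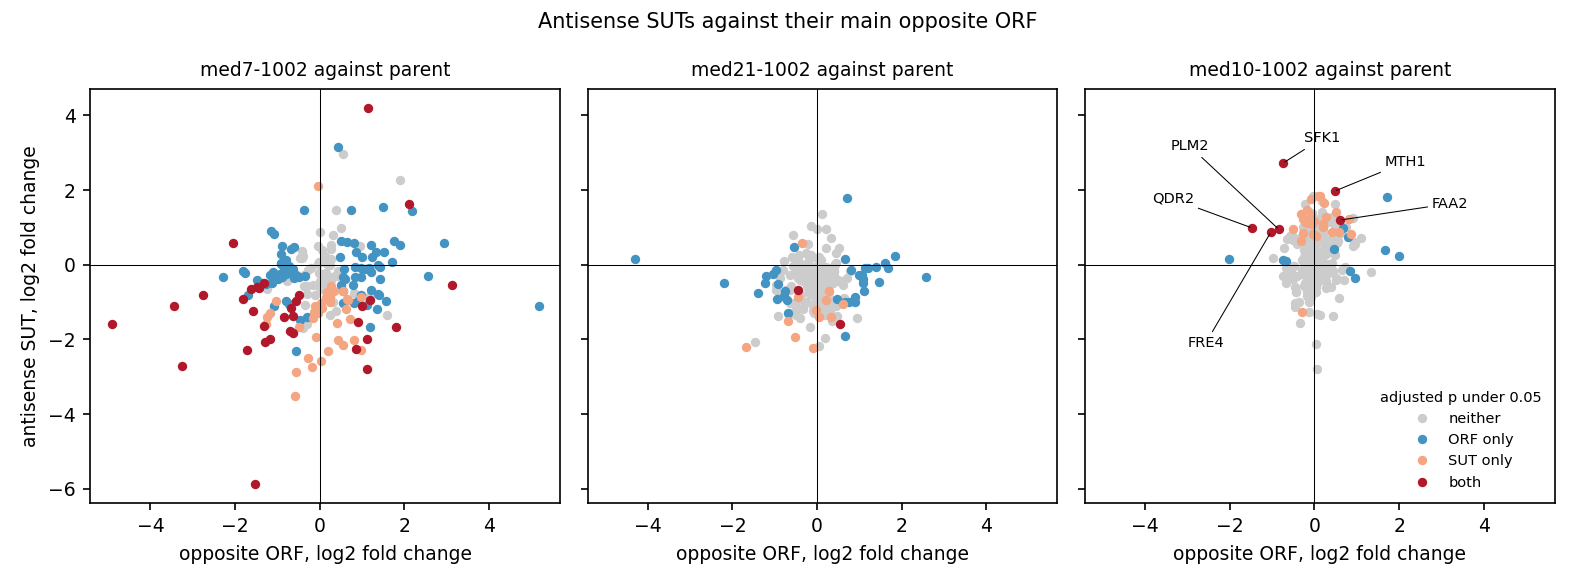
Log2 fold change of each antisense SUT (vertical) against that of its main opposite ORF (horizontal) over 218 pairs, for the 3 mutants against parent; colours show which of the pair had an adjusted p under 0.05. In med10-1002, SUTs opposite SFK1, QDR2, FRE4 and PLM2 lie at upper left and those opposite MTH1 and FAA2 at upper right, and most called SUTs lie near 0 on the horizontal axis.

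Pairs called in opposite directions in med7-1002 included SUT016 across TIP1, a cell wall mannoprotein gene. SUT016 stood at 2.55 and 0.885 CPM in med7-1002, against 5.21 and 5.40 in parent (log2 −1.67, edgeR adjusted p = 0.0305, or 0.116 with only these 2 groups in the fit), and TIP1 rose by 1.79. Only part of SUT016 can be counted, because it shares span with a transcript on its own strand. The part opposite TIP1 is 34.6% of the SUT, and whether the counted reads come from it is not known. SUT557 with the cardiolipin phospholipase gene CLD1 (−2.78 and 1.12), SUT658 with JEN1 (−2.00 and 1.12), SUT206 with NCA3 (−1.10 and 0.99) and SUT255 with the RNA exonuclease gene REX2 (−0.96 and 1.18) followed. Among pairs with the same direction, SUT198 and OPT1 fell together (−2.27 and −1.71), as did SUT485 and ARO10 (−1.57 and −4.91). At the wrong-strand ratio of 0.724% above, which may be too high, OPT1 reads would make up 17.4% of the parent level of SUT198. SUT253 and EMA19 rose together (1.64 and 2.11). SUT179 inside RPI1 had 0 and 2 counts in med7-1002, against 53 and 94 in parent, and RPI1 fell by 1.54. SUT384 at the start of UBC11, a ubiquitin-conjugating enzyme gene, had 0 and 7 counts in med7-1002, against 21 and 29 in parent, and UBC11 fell by 3.26. TIP1, EMA19 and REX2, which rose, span 822, 599 and 997 nt, and UBC11, which fell, spans 730 nt. All tested ORFs of over 500 and up to 1000 nt had a median log2 fold change of 0.66 in med7-1002. The part of span in these ORF changes was not tested.

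Without the med7-1002 libraries more pairs were called. In med10-1002 the SUT rose and the ORF fell in 6 of 215 pairs, both rose in 21, both fell in 4, and the SUT fell where the ORF rose in 1. The ORF rose opposite 24.4% of the 86 SUTs that rose and fell opposite 6.98%, while over all 215 pairs 23.7% of the ORFs rose and 12.1% fell. Falling ORFs thus took a smaller share of the pairs with a risen SUT than of all pairs here, and a larger one with the med7-1002 libraries in the fit. In med21-1002 both fell in 23, the SUT fell where the ORF rose in 16, the SUT rose where the ORF fell in 1, and both rose in 1. The ORF fell opposite 31.9% of the 72 SUTs that fell and rose opposite 22.2%, while over all pairs 20.0% of the ORFs fell and 21.4% rose. No test was made of these shares. ORFs opposite an antisense SUT had median log2 fold changes close to those of the 4591 tested ORFs with none. In med7-1002 they stood at 0.02 against 0.08, in med21-1002 at 0.03 against 0.04, and in med10-1002 at −0.01 against −0.02. The shares called were less alike: in med21-1002 9.59% of the 271 opposite ORFs rose and 6.64% fell, against 4.07% and 3.75% of those with none, and in med7-1002 26.2% rose and 28.4% fell, against 30.3% and 22.0%. In med10-1002 5.54% rose and 3.32% fell, against 4.18% and 2.94%.

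Among themselves, the antisense SUTs of med10-1002 differed by span. Those over 1000 nt had a median log2 fold change of 0.64, with 30 of 117 rising and 1 falling; those of over 500 and up to 1000 nt had 0.11, with 2 of 79 rising; and the 23 up to 500 nt had −0.41. Over all transcripts of these spans 6.54%, 1.93% and 0.0% rose, and the medians stood at 0.03, −0.10 and −0.36 in the same order. The shortest antisense SUTs thus stood close to all short transcripts, and the longest did not stand close to all long ones. Of the 3870 tested transcripts over 1000 nt, however, 3554 are ORFs. SUTs without an opposite ORF, with a median of 0.60 over all spans, were not divided by span. In med21-1002 the medians of the antisense SUTs were −0.42, −0.58 and −0.62 from long to short, against 0.01, −0.03 and −0.13 over all transcripts. In med7-1002 they were −0.65, −0.49 and 0.20, against −0.12, 0.48 and 0.67, but for short transcripts its libraries differed. Relative to the parent mean, the 23 short antisense SUTs had a median of 1.06 in replicate 1 and −0.64 in replicate 2, and all 319 short transcripts 1.06 and −0.11. After a correction of the fold changes for span over all transcripts, the median of the antisense SUTs in med10-1002 was 0.39. Calls also went with the level: with the SUTs ordered by parent CPM per kb and divided into 3 classes of 73, 21 of the highest class rose in med10-1002, 10 of the middle class and 1 of the lowest. The parent level enters the fold change too, and no share over all transcripts of these levels is given. Whether this order is particular to antisense SUTs was therefore not tested.

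By position, antisense SUTs that cover the whole ORF transcript had a median of 0.61 in med10-1002 (5 of 24 rose), those that cover its start 0.32 (12 of 95), those that lie inside it 0.31 (6 of 50) and those that cover its end −0.02 (9 of 50). In med21-1002 the same classes stood at −0.37, −0.45, −0.55 and −0.60. The 131 that start within 500 nt of a divergent ORF start differed little from the rest, at 0.28 against 0.35 in med10-1002 and −0.40 against −0.49 in med21-1002. SUTs with TATAAA in the 150 bases before the start stood at 0.65 in med10-1002 (9 of 39 rose) and the others at 0.29 (23 of 180). In med21-1002 they stood at −0.60 and −0.44. No test was made between these classes, whose spans differ. Over all transcripts 4.93% rose in med10-1002, and no share called is given for all transcripts with TATAAA. Whether these orders are particular to antisense SUTs was therefore not tested.

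Genes that restrict, terminate or degrade noncoding RNA were read from a list of 53, of which 43 were tested. In med7-1002, 16 fell and 6 rose, while 22.6% of all transcripts fell and 25.9% rose. RCO1 of the Rpd3S histone deacetylase complex, which restrains transcription inside genes, fell to 45.9 and 51.1 CPM in med7-1002, against 124.3 and 121.6 in parent (log2 −1.34, edgeR adjusted p = 9.74e-05). HDA2 of the Hda1 deacetylase complex (−0.96) and ISW2, a chromatin remodeler (−0.94), fell, and HTZ1, the gene of the histone variant H2A.Z, rose (1.03). All tested ORFs up to 500 nt had a median of 1.25 in med7-1002. Those of over 500 and up to 1000 nt had 0.66 and longer ones −0.08. The part of span in the calls of this list was not tested. In med21-1002 edgeR called 2 of the 43 higher and 0 lower, while 3.88% of all transcripts rose and 3.92% fell. The 2 were HTZ1 (0.53, edgeR adjusted p = 0.0399) and POB3 of the FACT complex (0.42, 0.0493), and SET1 (−0.39) and NRD1 (−0.64) did not pass. For med21-1002 DESeq2 called 2 higher and 1 lower. Without the med7-1002 libraries edgeR called 6 higher and 2 lower (backgrounds 14.8% and 14.9%). In med10-1002 edgeR called 0 of the 43, 4 had an unadjusted p under 0.05, DESeq2 called 1 lower, and without the med7-1002 libraries edgeR called 5 higher and 8 lower (backgrounds 20.8% and 16.0%). The smallest adjusted p there were those of the termination factor gene NAB3 (−0.46, edgeR adjusted p = 0.0795), SPT21 (−0.39, 0.086), ISW2 (−0.34, 0.152) and EAF3 (−0.28, 0.174).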

How the data were processed

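The authors deposited 1 table of raw counts per library and the annotation used for counting. Per the submitters' processing notes the authors used HTSeq, SAMtools and STAR 2.3.0, and the builds are sacCer3 and R64. Whether strands were kept apart, how overlaps were counted and how reads with several matches were handled are not given in the labels. The counter's tallies of unassigned reads stayed out of library sizes and tests (32.7% to 49.5% of reads had no feature).

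Antisense SUTs were found from the annotation; coding intervals and sequences came from RefSeq R64. The members and lists were chosen with earlier results of these data known. Counts were fitted by edgeR 4.0.16 (R 4.3.3; quasi-likelihood test) over all 8 libraries, with TMM scaling, filterByExpr at a minimum count of 10, 1 term per group, 4 residual degrees of freedom and Benjamini-Hochberg adjustment over 5746 transcripts. Adjusted p-values in the text are edgeR's unless DESeq2 1.42.0 is named. The fit was also run on simulated data. The outcome is not given, so that run cannot decide whether the fit suits groups of unequal spread, as these are. Nothing in the labels says that libraries of 1 group came from separate cultures, so p-values reflect only how much these samples vary, which may be technical. Same-numbered libraries did not deviate together, so numbers were not used as pairs.

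SUTs were named by rule: up to 8 per direction and mutant with the largest called change, among SUTs averaging at least 2 on the log2 CPM scale and not overlapping between mutant and parent libraries; those called in all 3 mutants; the 6 with the highest parent level; SUT719; and up to 5 called pairs per direction and mutant. SUT699, SUT565, SUT318, SUT706 and SUT330 were named after their values were seen. The contrast of med21-1002 with med10-1002, its alternatives and the crossed replicate block were added after seeing the data. Alternatives covered scaling, filter, tool, the libraries in the fit, a replicate block, a correction for span and leaving out each library.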

Additional observations from a re-analysis of the deposited data

Results flagged for a closer look

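Of the named antisense SUTs, 8 moved in opposite directions in a pair of mutants, with both calls against parent past the threshold (edgeR adjusted p under 0.05). The direct comparison of the mutants passed as well. It largely follows from the 2 calls, which share the parent libraries, so it adds no separate support. Of the 219 tested antisense SUTs, 19 fell in med7-1002 and rose in med10-1002, and 3 fell in med21-1002 and rose in med10-1002. The share of such opposite calls over all transcripts is not given. Between med21-1002 and med10-1002 the log2 difference was −2.33 for SUT658 opposite JEN1 (edgeR adjusted p = 0.00039) and −1.55 for SUT757 opposite FRE4 (0.000555). Between med7-1002 and med10-1002 it was −3.07 for SUT175 opposite SOA1, −3.23 for SUT238 opposite YKR015C, −3.29 for SUT334 opposite YNL095C, −2.32 for SUT494 opposite PLM2, −2.09 for SUT606 opposite QDR2, −2.83 for SUT658, −1.57 for SUT670 opposite OSI1 and −1.68 for SUT757. SUT658 stood at 7.03 and 11.9 CPM in med7-1002, 13.7 and 13.6 in med21-1002, then 69.0 and 68.4 in med10-1002, against 40.0 and 37.2 CPM in parent, so parent lay between the mutants. The med7-1002 comparisons include the differences of those libraries that the report gives.

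Reads that the authors' counter assigned to no annotated transcript were more frequent in each mutant library than in the parent libraries. They made up 49.5% and 37.7% in med7-1002, 36.3% and 34.3% in med21-1002, then 34.7% and 34.7% in med10-1002, against 32.7% and 33.5% in parent. The strand setting of the counter is not given, and the position of these reads was not analysed here, so they are not known to lie outside every transcript.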

How the results depend on the processing

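Directions held in every setting tried for the medians and counts of antisense SUTs and for the named SUTs: none reversed. The count for med7-1002 was 70, 42 with only the 2 groups compared, and 41 to 138 leaving out 1 library; its median was −0.23 to −1.06. The count for med21-1002 was 14, 9 with library size alone, 23 with DESeq2, 51 with only the 2 groups compared, 76 without the med7-1002 libraries, 7 with the replicate block, and 3 to 74 leaving out 1 library; its median was −0.40 to −0.54. The count for med10-1002 was 33, 55 with DESeq2, 117 with only the 2 groups compared, 99 without the med7-1002 libraries, and 3 to 98 leaving out 1 library; its median was 0.39 with the length correction and 0.27 to 0.38 leaving out 1 library. The count for med21-1002 against med10-1002 was 72, 125 with only the 2 groups compared, 128 without the med7-1002 libraries, and 29 to 125 leaving out 1 library; its median was −0.72 without a filter on low counts and −0.73 to −0.89 leaving out 1 library. Leaving out a library removes degrees of freedom, and otherwise the cause was not tested. Shares over all transcripts are given only for all 8 libraries and for the fit without the med7-1002 libraries. The counts of the other settings thus cannot tell antisense SUTs from transcripts in general. Of 720 values of 41 named results, 138 lost the call, 21 without parent replicate 1 and 24 without parent replicate 2, and the others stayed on their side of the threshold. The replicate numbers did not pair the samples (correlations of same-numbered libraries from −0.186 to 0.0938); a block with the med7-1002 numbers crossed, added after seeing the data, gave counts of 72, 14 and 37 in med7-1002, med21-1002 and med10-1002. The fit without the med7-1002 libraries gives no value for med7-1002. Low counts kept 28 SUTs from being tested, of which 15 partly share their span with a transcript on the same strand and 13 share nothing.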
